A study of Bos taurus with 12 samples.

Results

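Gene expression in bovine fetal fibroblasts was set beside that of cloned embryos at the 8-cell stage, to describe which expression of a body cell was absent, still present or new after nuclear transfer. Loci were taken where the deposited mean was at least 1 FPKM (sequenced fragments corrected for transcript length and for the size of the library) in fibroblasts or in cloned embryos. This left 14703 of the 22445 loci in the table. The 6 loci at the limit stood at exactly 1 FPKM in the higher of the 2 columns, and the 9 nearest loci left out stood at 0.997. Within 0.05 FPKM of the limit lay 110 loci inside and 137 outside.

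All samples came from Holstein cattle. Fibroblasts were connective tissue cells of fetal origin, harvested with trypsin, in 3 libraries (BFF). Cloned embryos were made by somatic cell nuclear transfer (SCNT) without KDM5B overexpression, in 3 libraries (SCNT_8C), each from a pool of 8 embryos. The other embryo groups, used here only beside these, were cloned embryos with KDM5B overexpression (SCNT_KDM5B_8C) and fertilised embryos from in vitro fertilisation (IVF_8C), each with 3 libraries of pools of 8 embryos. The labels do not say that the sequenced fibroblasts were the line that gave the donor nuclei, nor from how many fetuses they came. They also do not say how KDM5B was delivered. The sample group field of the fibroblasts names SCNT embryos, so the groups rest on the titles.

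In nuclear transfer an egg stripped of its own nucleus receives that of a body cell, and factors of the egg have to silence the programme of the body cell and start that of the embryo. Embryos at this stage also hold RNA that the egg had stored before activation, and in cattle the embryo's own genome becomes broadly active around it. A transcript present in the embryo may thus have been made by the donor genome or left over from the egg, and these sources cannot be told apart here. KDM5B erases a histone methylation mark that is typical of active genes.

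The table gives 1 mean per group. No SD, interval or test exists for any value that follows, and "higher" and "lower" compare these means only. Library depth is unknown. Summed FPKM was 528618 in fibroblasts and 885032 in SCNT embryos, a ratio of 1.67, so a rescaling to equal sums (TPM, each column brought to a sum of 1000000) moves all fibroblast values up relative to SCNT. Per the design text the fibroblast libraries ran on a BGISEQ instrument and the embryo libraries on a HiSeq, but the protocol text mentions the HiSeq alone. Only for embryos does the protocol describe amplified cDNA. Instrument, library preparation and cell type cannot be told apart. Loci carry IDs without gene names, so neither fibroblast nor oocyte markers could be looked up, and the labelled cell types were not checked. In bulk RNA, fewer cells of a type and less RNA per cell cannot be told apart.

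The fibroblast and SCNT profiles were far apart. Of the 14703 loci, 8175 were at 1 FPKM or more in both groups, 3441 in fibroblasts alone and 3087 in SCNT alone. The means differed by at least 2-fold on the log2(FPKM + 1) scale for 11080 loci (75.4%). In shares of all 14703 loci, 5400 (36.7%) were at least 2-fold higher in SCNT and 5680 (38.6%) at least 2-fold lower. A difference of at least 4-fold was seen for 3002 loci higher and 3796 lower in SCNT. Only 1107 loci lay within 0.32 on this log2 scale.

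The differences centred near 0 as deposited and reached farther below 0 than above it at the quantiles given. The median SCNT minus fibroblast log2 difference was -0.02, the quartiles were -2.08 and 1.66, and the values at 5% and 95% were -4.72 and 4.06. After subtracting the median, 5455 loci (37.1%) were higher and 5632 (38.3%) lower. Rescaled to TPM, the median was -0.68, with 4666 higher and 7073 lower, so the near balance of the deposited values holds on the FPKM scale and not as TPM. Part of the count follows from the selection itself. A locus listed at 0 in either column entered only with 1 FPKM or more in the other, which is a 2-fold difference at a pseudocount of 1. There were 1696 such loci, 1045 at 0 in fibroblasts and 651 at 0 in SCNT.

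**Figure D1:**
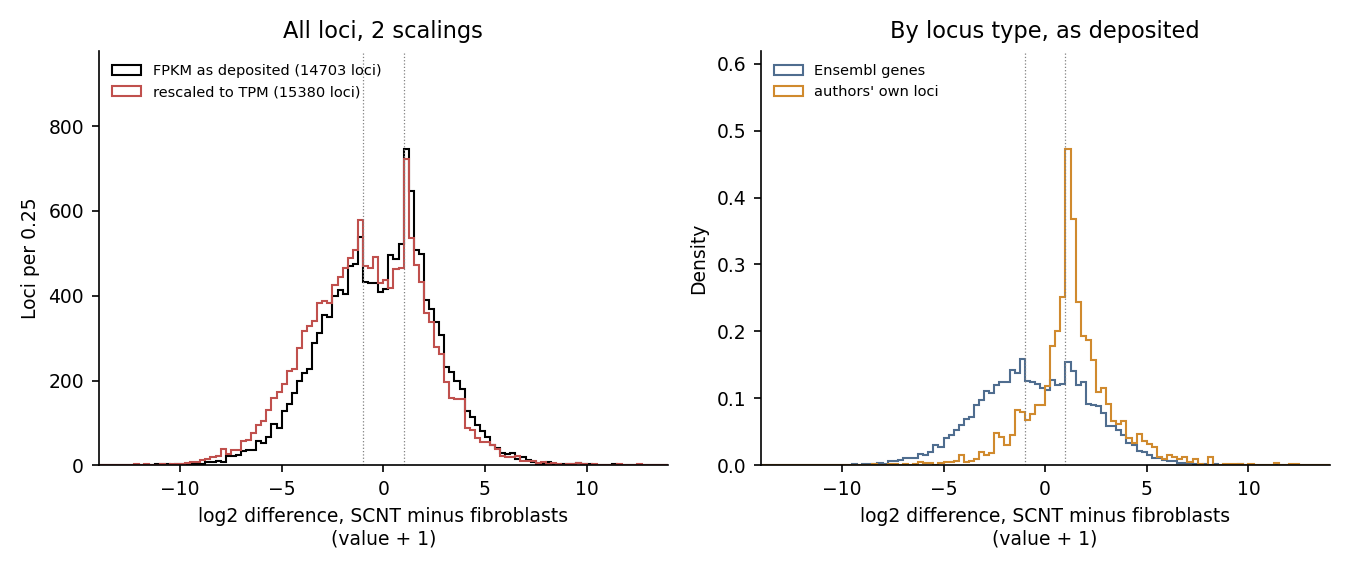
Histograms of the log2 difference, SCNT minus fibroblasts, of mean values with 1 added (x axis), against the number of loci per bin (left) or density (right); dotted lines mark 2-fold. The left panel compares FPKM as deposited (median -0.02) with values rescaled to TPM (median -0.68); the right panel shows Ensembl genes (median -0.48) left of the authors' own loci (median 1.24).

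For a description, loci were called lost at 5 FPKM or more in fibroblasts and under 1 in SCNT, gained in the reverse case, and kept at 5 or more in both. By these limits 2162 loci (14.7%) were lost, 4420 (30.1%) kept and 1095 (7.45%) gained. The other 7026 lay in between. The words name positions in the table. They do not say that a transcript was followed through time.

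**Figure D2:**
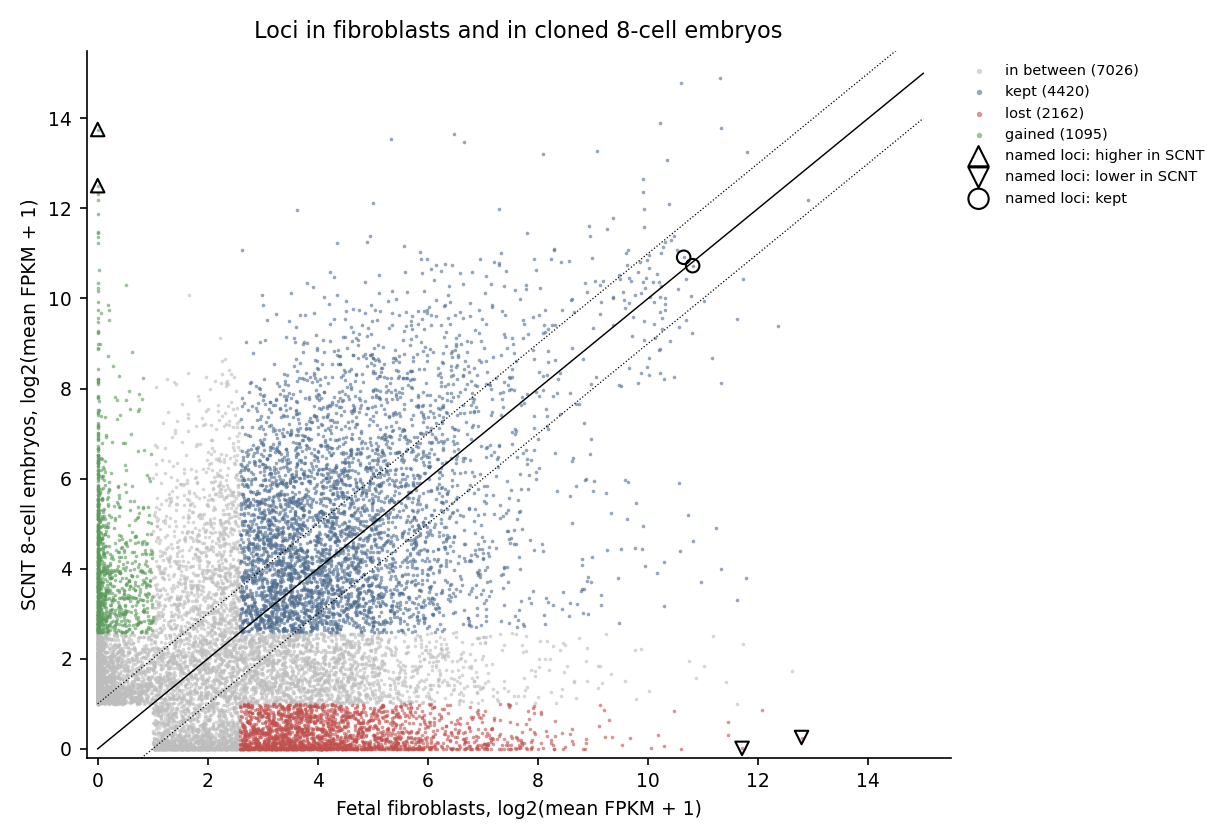
Each point is a locus, placed by log2(mean FPKM + 1) in fibroblasts (x axis) and SCNT 8-cell embryos (y axis), coloured by class; the solid line marks equal values and the dotted lines 2-fold. The 2162 lost loci lie along the x axis, the 1095 gained loci along the y axis, and open symbols mark the 6 loci named in the text.

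Loci that fibroblasts expressed at 5 FPKM or more were for the slightly larger part also at 5 or more in cloned embryos, as they were in the other embryo groups. Of the 8325 loci at 5 FPKM or more in fibroblasts, 4420 (53.1%) reached 5 in SCNT, 1743 (20.9%) stood between 1 and 5, and 2162 (26.0%) were under 1. This majority depends on the limit. At 10 FPKM or more in both groups stood 2715 loci, the smaller part of those at 10 or more in fibroblasts. The share reaching 5 was 56.7% in SCNT with KDM5B and 56.0% in IVF embryos, both slightly above SCNT. Over the whole table, loci at 5 or more were likewise fewer in SCNT (6558) than with KDM5B (7125) or in IVF (7464). As TPM the SCNT shares were 52.3%, 21.8% and 25.9% of 9961 loci. In shares of summed FPKM, which bringing a column to another total does not change, the kept loci held 62.8% of the fibroblast total and 84.0% of the SCNT total. The lost loci held 19.3% of the fibroblast total and 0.0721% of the SCNT total. The gained loci held 0.0390% in fibroblasts and 10.2% in SCNT. The 2 low shares are fixed by the limit of 1 FPKM that defines the classes. In the columns without a part in the choice, lost loci held 0.129% with KDM5B and 0.321% in IVF. Gained loci held 11.2% and 15.7% there.

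**Figure D3:**
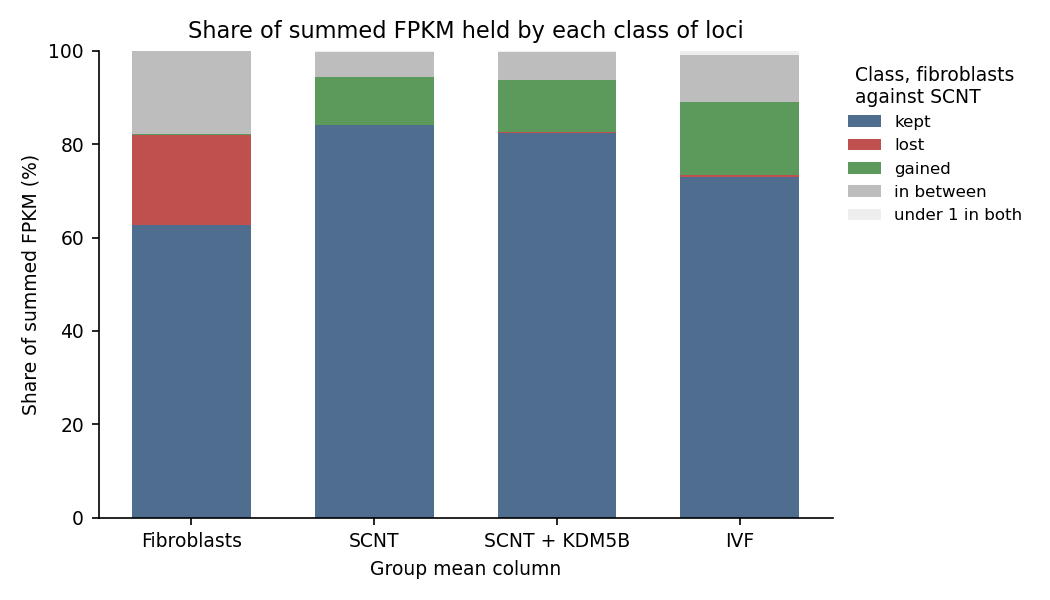
Stacked bars give the share of summed FPKM (y axis, %) held by each class of loci in each group mean (x axis). The kept class fills 62.8% of the fibroblast column and 84.0% of the SCNT column. The lost class fills 19.3% of the former and is too thin to see in the latter, which its limit of under 1 FPKM in SCNT fixes.

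The lost loci ranged from moderate to very high in fibroblasts. Their median was 15.3 FPKM in fibroblasts (quartiles 8.97 and 32.9) and 0.193 in SCNT (quartiles 0.0333 and 0.506). In fibroblasts 659 stood under 10 FPKM, 1164 from 10 to under 50, 167 from 50 to under 100, and 172 at 100 or more. In SCNT 334 of them were listed at 0 and 489 above 0 but under 0.1. A further 549 stood between 0.5 and 1, just under the limit.

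Differences in this direction cannot exceed the fibroblast level itself on this scale, so the genes at their extreme are abundant in fibroblasts by construction. ENSBTAG00000017312.3 held rank 2 in fibroblasts at 7070 FPKM, 1.34% of the column's sum, and stood at 0.19 FPKM in SCNT. It was at 0.343 FPKM in SCNT with KDM5B and listed at 0 in IVF. ENSBTAG00000000575.5 held rank 10 in fibroblasts at 3342 FPKM and stood at 0.00667 in SCNT, 0.05 with KDM5B and 0.137 in IVF. All 3 embryo means of both genes were thus under 1 FPKM. The SCNT value of the second is 2 steps of 0.01 FPKM spread over 3 libraries, so no ratio is given for it.

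The share of lost loci did not change steadily with the fibroblast level. The share of loci under 1 FPKM in SCNT was 28.6% at 5 to under 10 FPKM in fibroblasts, 26.3% at 10 to under 50, 20.1% at 50 to under 100, 25.6% at 100 to under 500 and 10.7% at 500 or more. The share at 5 or more in SCNT was 47.4%, 52.6%, 62.2%, 58.7% and 78.1% in the same classes. Both series turn at 100 to under 500 FPKM before the highest class.

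**Figure D4:**
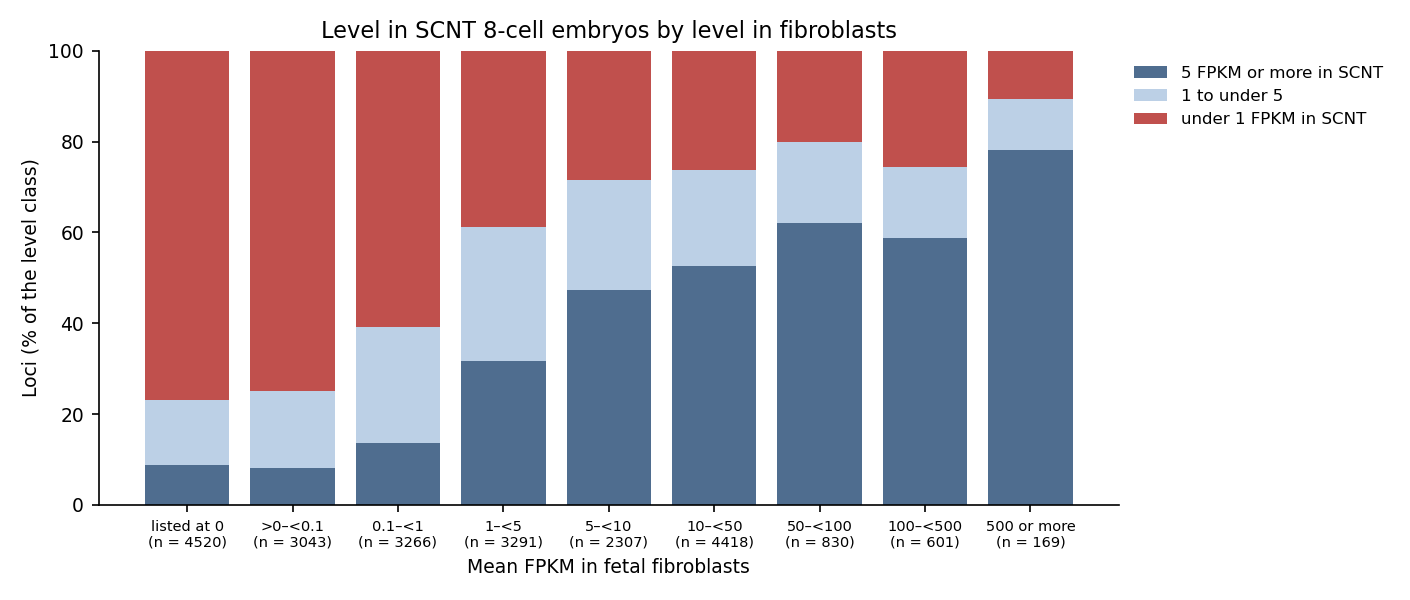
Loci of the whole table are grouped by mean FPKM in fibroblasts (x axis), and each bar divides a group by its level in SCNT 8-cell embryos (y axis, % of loci). The part at 5 FPKM or more is 8.87% of loci listed at 0 in fibroblasts, 8.12% of those above 0 but under 0.1, 58.7% at 100 to under 500 and 78.1% at 500 or more, with a rise from class to class except at the second class and at 100 to under 500.

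Within the class of 100 to under 500 FPKM the SCNT levels were spread widely. The 601 loci had SCNT quartiles of 0.957 and 150 FPKM around a median of 11.5. In 22.8% of them the SCNT mean was at or above the fibroblast mean, while 154 were under 1 FPKM.

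The 169 loci at 500 FPKM or more in fibroblasts were spread from the top to the bottom of the SCNT range. In SCNT 84 of them were again at 500 or more, and 18 were under 1 FPKM. Their median was 1009 FPKM in fibroblasts, 470 in SCNT, 547 in SCNT with KDM5B and 66.2 in IVF. In IVF 28 of the 169 reached 500, and 22 were under 1. The IVF column as a whole was also lower among abundant loci. Its locus at rank 100 stood at 857 FPKM, next to 1316 in SCNT and 1255 with KDM5B. The counts at 500 were not separated from this. On the SCNT side 55 of the 169 lay within 2-fold of fibroblasts, 22 were higher and 92 lower. These loci were taken by the fibroblast column alone, so the embryo values had no part in choosing them, while the 3 embryo values share that column as their reference. As a share of the column's sum the 169 loci held 43.3% in fibroblasts, 27.6% in SCNT, 25.2% with KDM5B and 23.1% in IVF. In IVF a single locus at 94337 FPKM made up 12.2% of the sum, and the other 168 held 10.9%. Without that locus the others held 42.8% in fibroblasts, 24.1% in SCNT and 22.7% with KDM5B.

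The 18 loci at 500 FPKM or more in fibroblasts and under 1 in SCNT carried 6.03% of the fibroblast sum. Their fibroblast values ran from 550 to 7070 FPKM with a median of 1112, and their SCNT median was 0.218. In SCNT with KDM5B 15 of the 18 were under 1, and in IVF 13 were, next to 17 and 22 of all 169. The highest of them reached 4.74 FPKM with KDM5B and 3.103 in IVF. All 18 were Ensembl genes.

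The 84 loci at 500 or more in both groups are the most abundant shared part. They held 20.6% of the fibroblast sum and 26.8% of the SCNT sum, with medians of 1045 and 1328 FPKM. In SCNT with KDM5B all 84 were at 500 or more, with a median of 1175. In IVF the median was 207 and 24 reached 500. Since these 84 were chosen by a high SCNT value, a lower IVF value is partly fixed by the choice. The 307 loci at 500 or more in SCNT, whatever their fibroblast level, had a median of 281 in IVF.

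Abundance ranks do not depend on the scale of a column. Of the 100 most abundant loci of fibroblasts, 30 were among the 100 most abundant in SCNT and 65 among the first 1000. A further 10 were under 1 FPKM and 10 stood between 1 and 5. In the reverse direction, of the first 100 in SCNT, 70 were among the first 1000 of fibroblasts, 10 were under 1 FPKM and 0 stood between 1 and 5. Of the first 100 of fibroblasts, 17 were among the first 100 of IVF embryos and 28 among those of SCNT with KDM5B. The first 1000 lists of fibroblasts and SCNT shared 320 loci, 32.0% of each.

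Summed FPKM was held by fewer loci in SCNT than in fibroblasts. IVF went further among the first 100 loci and at the 50% mark, but not among the first 1000. The top locus alone held 12.2% of the sum in IVF, 3.46% in SCNT, 2.76% with KDM5B and 1.45% in fibroblasts. The 10 most abundant loci held 17.8% of the sum in SCNT, 9.02% in fibroblasts, 16.0% in SCNT with KDM5B and 25.2% in IVF. The first 100 held 42.8% in SCNT, 34.3% in fibroblasts, 40.7% with KDM5B and 46.3% in IVF. The first 1000 held 81.0% in SCNT, 69.4% in fibroblasts, 78.8% with KDM5B and 76.7% in IVF. The 50% mark of the sum was reached by 158 loci in SCNT, 262 in fibroblasts, 180 with KDM5B and 137 in IVF. Loci at 5 FPKM or more numbered 6558 in SCNT and 8325 in fibroblasts.

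Kept loci differed widely in how close their levels were. Among the 4420, 1764 (39.9%) lay within 2-fold between the groups, next to 3623 (24.6%) of all 14703 loci. The latter share is lowered by the rules, since the 14703 include the 2162 lost and 1095 gained loci. By their limits 0 of these can lie within 2-fold, so the contrast is partly built in. Of the kept loci 626 lay within a log2 difference of 0.32, while 1804 were higher and 852 lower in SCNT. The SCNT to fibroblast ratio of FPKM had a median of 1.48 with quartiles of 0.623 and 3.94. At least 10-fold apart were 458 loci higher and 116 lower in SCNT. The balance depended on the scale. With the median difference of all loci subtracted, 1824 were higher and 840 lower. As TPM, 1247 of the same loci were higher and 1420 lower, and 1753 stayed within 2-fold.

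ENSBTAG00000011963.5 and ENSBTAG00000007454.1 were the most abundant Ensembl genes of the kept class within a log2 difference of 0.32. The former stood at 1601 FPKM in fibroblasts (rank 36), 1929 in SCNT (rank 53), 1548 in SCNT with KDM5B and 73.6 in IVF. The latter stood at 1793 FPKM in fibroblasts (rank 28), 1695 in SCNT (rank 71), 1952 with KDM5B and 304 in IVF. The nearness of their fibroblast and SCNT means is fixed by the choice, and a lower IVF value partly so.

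The gained loci were mostly of moderate level. Their median was 12.8 FPKM in SCNT (quartiles 7.50 and 27.7) and 0.0433 in fibroblasts. In fibroblasts 401 of the 1095 were listed at 0. In SCNT 424 stood under 10 FPKM, 512 from 10 to under 50, 74 from 50 to under 100 and 85 at 100 or more. At 500 FPKM or more were 27 loci, which alone held 6.76% of the SCNT sum. Of these 27, 25 were also at 500 or more with KDM5B and 11 in IVF, and 0 were under 1 in either group. Of all 307 loci at 500 or more in SCNT, 270 and 104 were so, and 0 and 1 were under 1. The counts thus go with a high SCNT value and are not particular to gained loci.

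ENSBTAG00000039870.2 and ENSBTAG00000034346.2 showed the largest differences in this direction, and both were listed at 0 in fibroblasts. The former stood at 13790 FPKM in SCNT, 15726 with KDM5B and 7187 in IVF. In SCNT it held rank 5. The latter stood at 5808 FPKM in SCNT, 5529 with KDM5B and 24421 in IVF, where it held rank 2. Both genes were abundant in all 3 embryo groups, in a different order of cloned and fertilised embryos.

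Seen from the SCNT side, the most abundant embryo loci were seldom new relative to fibroblasts. Of the 6558 loci at 5 FPKM or more in SCNT, 1095 (16.7%) were under 1 in fibroblasts. That share was 25.5% at 5 to under 10 FPKM in SCNT, 17.4% at 10 to under 50, 9.44% at 50 to under 100, 6.69% at 100 to under 500 and 8.79% at 500 or more. Loci picked by a high SCNT value stood lower in fibroblasts. The 867 loci at 100 to under 500 FPKM in SCNT had a fibroblast median of 24.0, and 5.88% of them were at or above their SCNT level there.

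Ensembl genes and loci with the authors' own IDs differed. The table holds 17643 Ensembl genes and 4802 loci with the authors' own IDs, of which 12473 and 2230 entered the comparison. Among the Ensembl genes 4026 were at least 2-fold higher and 5422 lower in SCNT, with a median difference of -0.48. For the authors' own loci the numbers were 1374 and 258, with a median of 1.24. After centring on all loci the medians were -0.45 and 1.27.

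The classes divided in the same way. Of the lost loci 66 (3.05%) and of the kept loci 115 (2.60%) carried the authors' own IDs, against 427 (39.0%) of the gained loci. Of the own loci, 16.0% reached 1 FPKM in fibroblasts and 40.9% in SCNT, against 61.5% and 52.7% of the Ensembl genes. Own loci held 2.31% of the fibroblast sum and 5.98% of the SCNT sum. How the authors defined these loci, and from which libraries, is not stated in the labels. With Ensembl genes alone, 668 loci were gained and 2096 lost.

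The lost, kept and gained loci were then looked up in the embryo groups that had no part in their choice. Each of these groups is set against the same fibroblast mean, so they are given side by side. Of the 2162 lost loci, 1790 (82.8%) were also under 1 FPKM in SCNT with KDM5B and 1461 (67.6%) in IVF, while 1359 (62.9%) were under 1 in all 3 embryo groups. For reference, of all 8325 loci at 5 or more in fibroblasts 22.5% were under 1 with KDM5B and 22.6% in IVF. The median of the lost loci was 0.303 FPKM with KDM5B and 0.41 in IVF.

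Of the 4420 kept loci, 4323 (97.8%) reached 5 FPKM with KDM5B and 3769 (85.3%) in IVF, where 129 were under 1. Of all 8325 loci at 5 or more in fibroblasts, 56.7% and 56.0% did so. The kept loci's medians were 19.3 FPKM in fibroblasts, 28.4 in SCNT, 32.1 with KDM5B and 25.9 in IVF. Of the 1095 gained loci, 992 (90.6%) reached 5 with KDM5B and 615 (56.2%) in IVF. Of all 10829 loci under 1 in fibroblasts, 1253 (11.6%) and 1540 (14.2%) did so. A further 246 (22.5%) of the gained loci were under 1 FPKM in IVF, of which 160 were the authors' own loci and 200 reached 5 with KDM5B. With Ensembl genes alone, 67.4% of the gained loci reached 5 in IVF.

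**Figure D5:**
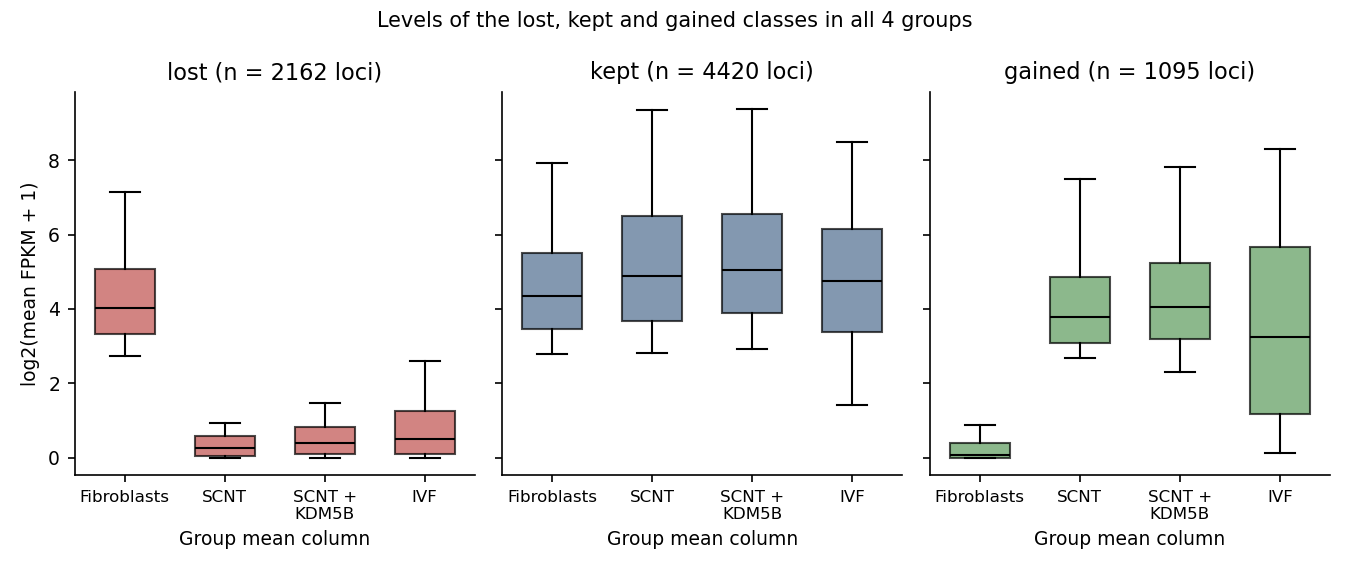
Boxes show log2(mean FPKM + 1) (y axis) of the lost, kept and gained loci in each group mean (x axis), with the median, the quartiles and whiskers at 5% and 95% of loci. Lost loci are low in SCNT by their limit of under 1 FPKM (median 0.193). In the groups without a part in the choice their medians are 0.303 FPKM with KDM5B and 0.41 in IVF. Gained loci cannot lie under 5 FPKM in SCNT, so the spread of that box is partly fixed by the choice. Between the groups without a part in it, gained loci spread more widely in IVF (lower quartile 1.23 FPKM) than with KDM5B (8.10).

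Counted anew for each embryo group, the same limits gave similar numbers of lost loci. Against SCNT with KDM5B 1875 of the 8325 loci at 5 FPKM or more in fibroblasts were under 1 (22.5%), and against IVF 1882 (22.6%), next to 2162 (26.0%) against SCNT. Gained loci numbered 1253 with KDM5B and 1540 in IVF, next to 1095 in SCNT. These are 17.6%, 20.6% and 16.7% of the loci at 5 or more in the respective embryo group. As TPM the lost loci were 25.9% for SCNT, 22.8% with KDM5B and 21.8% for IVF, and the gained loci 14.9%, 15.9% and 19.4%. SCNT thus had the highest share of lost and the lowest share of gained loci of the 3 groups on either scale, by a few percentage points and without a replicate check. Over the whole table as deposited, SCNT also had the fewest loci at each limit. At 1 FPKM or more stood 11262 loci in SCNT, 12121 with KDM5B and 12582 in IVF, and at 5 or more 6558, 7125 and 7464. The class shares were not separated from these column-wide counts.

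Across the 14703 loci compared, Pearson's r of log2(FPKM + 1) between fibroblasts and SCNT was 0.27 and Spearman's rho 0.17. The values were 0.29 and 0.20 for SCNT with KDM5B and 0.24 and 0.21 for IVF, so IVF was the lowest by r and the highest by rho. Among the 12473 Ensembl genes alone, IVF was the lowest by both. There r and rho were 0.27 and 0.18 for SCNT, 0.27 and 0.20 with KDM5B, and 0.17 and 0.14 for IVF. Leaving out loci low in both fibroblasts and SCNT restricts the range of these values. This choice uses the SCNT column but not the other embryo columns, so the order of the 3 groups on these sets is partly fixed by it. Across the whole table, r and rho were 0.51 and 0.50 for SCNT, 0.52 and 0.51 with KDM5B, and 0.45 and 0.45 for IVF. Among the 4420 kept loci, r was 0.42 to SCNT, 0.45 to SCNT with KDM5B and 0.26 to IVF. The kept loci were chosen with the SCNT column, which restricts its range. These are correlations across loci, which are not independent replicates, and all use the same fibroblast mean.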

How the data were processed

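RNA sequencing of 4 groups of 3 libraries was deposited by the authors as 1 table of FPKM. That each column is a mean of 3 libraries is read from the values: at least 99.9955% are whole multiples of 0.01 divided by 3 (tolerance 0.001 on the value times 300). Tools listed per the submitters' processing notes, without roles, are RSEM 1.2.12, Bowtie2 2.2.5, HISAT 0.1.6, StringTie 1.0.4 and bcl2fastq 2.16, with genome build UMD3.1. The annotation and any filters are not stated there.

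Computed here were differences of log2(FPKM + 1) between means, SCNT minus fibroblasts, as deposited and with the median difference subtracted, and counts at the limits given in the text. With 1 value per group no test was run. The gene table used (ARS-UCD2.0, 37063 entries) has 0 entries in its Ensembl column, so gene names and planned gene lists were not analysed here. Without names, the rule gave the 2 Ensembl genes most different in each direction among those at 10 FPKM or more in the higher group; 2 kept IDs with the highest geometric mean within a log2 difference of 0.32 were added after the table was seen. Members, limits and classes were chosen with earlier results of these data known. Alternatives were other pseudocounts (0.1, 5), filters, limits and scalings, Ensembl genes alone, and SCNT with KDM5B in place of SCNT. The counting code was tested on simulated data. Python 3.11.15, numpy 2.4.6, pandas 2.3.3, scipy 1.17.1 and matplotlib 3.10.9 were used.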

Additional observations from a re-analysis of the deposited data

How the results depend on the processing

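Of 66 values under the alternatives, 44 stayed close to those reported (counts within 1.5 times), 19 moved and 3, all of the median difference, changed sign. Of the 44, 4 were fixed by construction: the counts without a filter, since a locus under 1 FPKM in both columns cannot be 2-fold apart at a pseudocount of 1, and the median after centring. Counts of loci 2-fold apart (11080 as reported, 5400 higher and 5680 lower in SCNT) fell to 7380 (3386 higher) at a pseudocount of 5, and to 6997 (3270 and 3727) at a mean FPKM of at least 5, where fewer loci enter. The median log2 difference of -0.02 was 0.0054 without a filter, 0.34 after quantile normalization and 0.29 with the KDM5B column in place of SCNT, -0.68 as TPM, -0.48 for Ensembl genes alone and -0.20 with that filter on the mean, so no direction is drawn from it. Higher loci made up 48.7% of those 2-fold apart as deposited, 39.7% as TPM, 42.6% for Ensembl genes alone and 53.1% after quantile normalization. With limits of 10 and 0.5 FPKM, 1111 loci were lost, 2715 kept and 574 gained. With limits of 2 and 1 FPKM, 2009 were gained. Ensembl genes alone gave 668 gained. Of the lost loci, the share under the low limit in IVF was 75.2% after quantile normalization and 74.4% with the KDM5B column, against 67.6% reported. Of the gained loci, the share at the high limit in IVF was 53.0% after quantile normalization, 67.4% for Ensembl genes alone, and 52.8% and 62.1% with the stricter and looser limits, against 56.2%. Except where fewer loci enter, the cause was not tested. Depth is unknown, so values near 0 have no stated precision. No paired analysis was possible because each group is represented by a mean without numbered libraries; leave-one-out fits and the planned gene lists were not run.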

Other observations

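Of the lost loci, 110 (5.09%) stood at 5 FPKM or more in both fibroblasts and IVF embryos while SCNT embryos were under 1. Their medians were 13.96 FPKM in fibroblasts, 6.53 in IVF, 0.73 in SCNT and 1.45 in SCNT with KDM5B. Most lay near the limits, with SCNT quartiles of 0.562 and 0.884 and IVF quartiles of 5.61 and 7.58, though fibroblast values reached 242 FPKM. With KDM5B 84 of the 110 stood between 1 and 5, 26 under 1 and 0 at 5 or more. Of all 2162 lost loci, 370 (17.1%) stood between 1 and 5 with KDM5B and 1790 under 1. As the SCNT values of the 110 lay just under 1, a small difference is enough to pass that limit. All 110 were Ensembl genes. They were chosen by a low SCNT value and a high IVF value. Loci so chosen tend to stand higher in other columns than in SCNT, so no effect of KDM5B is read from these counts.

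Fibroblasts held 770 loci at 100 FPKM or more. SCNT embryos reached 100 for 272 of them and stood under 1 for 172. Among these 172, 147 were also under 1 with KDM5B and 122 in IVF, next to 159 and 161 of all 770, and the highest IVF value was 16.6 FPKM. In the reverse direction, 85 loci under 1 in fibroblasts reached 100 in SCNT, of which 31 were the authors' own loci, 41 were at 100 or more in IVF and 6 under 1 there.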
